A study of Mus musculus with 12 samples.

Results

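The 10 genes described here encode the folding machinery of the endoplasmic reticulum (ER) and the regulator that controls much of it. They are the chaperones Hspa5 (BiP) and Hsp90b1 (GRP94), the disulfide isomerases Pdia4 and Pdia6, the J-domain cochaperones Dnajb9 and Dnajc3, the ER lumen proteins Sdf2l1 and Creld2, the membrane protein Herpud1, which takes part in ER-associated degradation, and the transcription factor gene Xbp1. They were chosen by symbol, and all 10 are among the 13554 genes of the expression table. All 10 also passed the filter on low values (at least 10 normalised reads in at least 3 libraries) and so belong to the 12570 genes tested.

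Secreted and membrane proteins fold in the ER, and hepatocytes, which make most plasma proteins, are rich in it. When unfolded proteins accumulate there, the membrane sensors IRE1, PERK and ATF6 start the unfolded protein response. IRE1 splices Xbp1 mRNA so that it encodes an active transcription factor, ATF6 is cleaved to release another, and both raise genes of chaperones, protein translocation and degradation. PERK slows translation and raises ATF4, which acts on amino acid metabolism and stress genes such as Ddit3 and Trib3.

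Liver RNA came from wild-type male C57Bl/6J mice 3 days after partial hepatectomy, an operation that takes out liver lobes, in 12 libraries. The 4 groups of 3 libraries had 70% of the liver removed (PH70), 80% removed (PH80), 80% removed in an arm named HC (PH80_HC), or 80% removed with G-CSF and HNF4a (PH80_G+H), a growth factor for granulocytes and a transcription factor of hepatocytes. What HC stands for, and the amount, timing and route of G-CSF and HNF4a, was not given in the sources used here, and no unoperated liver was analysed here. The labels give each library of a group its own number but do not say whether these are separate animals. The p-values thus measure spread between libraries, which may be technical.

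Values are normalised reads, that is, read counts divided by a size factor per library, and errors are SD over the 3 libraries of a group. Depth ranged from 9.72 to 44.5 M reads, and the lowest member count in any library was 282 reads (Dnajb9), so counting error was small beside the spread between libraries. The hepatocyte markers (8 of 8 in the table) summed to between 1.98 and 4.04 M normalised reads per library. Libraries differed within groups in how values depended on transcript length, with slopes from -0.28 (PH80_HC replicate 3) to 0.24 (PH80_G+H replicate 2) log2 units per doubling of length. The slopes also differed between groups, from -0.006 to 0.23 in PH70 and from -0.19 to -0.003 in PH80. In bulk liver, fewer cells of a type and less RNA per cell cannot be told apart.

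Of the 10 promoters, 6 hold a complete ER stress element in the window from 250 bases before to 50 bases after the RefSeq transcript start (GRCm38.p6). The ER stress response element is CCAAT, 9 bases, CCACG, which joins a site for NF-Y to a site for ATF6 or XBP1. Element II is ATTGG, 1 base, CCACG. Both were searched on both strands, and the 7 matches are shown because they are what most of these promoters share; the windows of Pdia4, Dnajb9, Sdf2l1 and Xbp1 hold neither element. Each sequence runs 5′ to 3′ on the strand of its gene, with the element in capitals and 20 bases on each side.
Hspa5: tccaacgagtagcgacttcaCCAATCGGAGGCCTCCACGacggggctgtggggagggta
Hsp90b1, distal: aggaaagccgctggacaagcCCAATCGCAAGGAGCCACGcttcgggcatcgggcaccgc
Hsp90b1, proximal: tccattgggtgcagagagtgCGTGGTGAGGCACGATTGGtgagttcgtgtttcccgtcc
Pdia6: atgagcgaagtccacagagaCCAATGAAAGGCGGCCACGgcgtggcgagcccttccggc
Dnajc3: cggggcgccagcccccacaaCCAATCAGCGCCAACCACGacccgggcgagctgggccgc
Creld2: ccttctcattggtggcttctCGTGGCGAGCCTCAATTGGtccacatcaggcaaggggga
Herpud1: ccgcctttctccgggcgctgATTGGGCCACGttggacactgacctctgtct

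The Hspa5 sequence lies at chr2:34772005-34772063 on the plus strand, and its element spans bases -65 to -47 from the RefSeq start, inside an exon of a longer Hspa5 transcript in GENCODE M21. The Hsp90b1 sequences lie on the minus strand at chr10:86705618-86705676 (element at -212 to -194) and chr10:86705513-86705571 (-107 to -89). Those of Pdia6 (chr12:17266471-17266529, element at -98 to -80), Dnajc3 (chr14:118937807-118937865, -105 to -87) and Creld2 (chr15:88819500-88819558, -126 to -108) are on the plus strand. In the proximal Hsp90b1 element and in Creld2 the match is on the opposite strand, so the capitals read CGTGG, 9 bases, ATTGG. The 5 elements of Hsp90b1, Pdia6, Dnajc3 and Creld2 lie outside annotated genes. The Herpud1 sequence is at chr8:94386357-94386407 on the plus strand, with its element at -52 to -42, within the antisense gene Gm15890 but outside its exons.

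The ER stress response element was thus present in 5 of the 10 member windows, against 39 of all 32851 promoter windows (0.119%) and 18 of the 12934 windows of tested genes (0.139%). Element II was present in 1 member window, that of Herpud1, against 12 of all windows (0.0365%). The shorter CCAAT was in 9 of 10 member windows and in 37.4% of all windows, and CCACG was in 9 of 10 and in 32.8%. Both are contained in the longer elements and were counted with them. The UPR element in the form TGACGTGG (0.676% of all windows) and the cAMP response element TGACGTCA (1.79%) were in 0 of the 10. Other forms of the UPR element were not searched, and the Hspa5 window holds the letters TGACGTGA. The Xbp1 window held none of the 6 motifs searched. The members were chosen as ER chaperone and XBP1 target genes, so their higher shares are a description and not a test. A match is a description of letters in this window and not a site shown to be used.

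**Figure D1:**
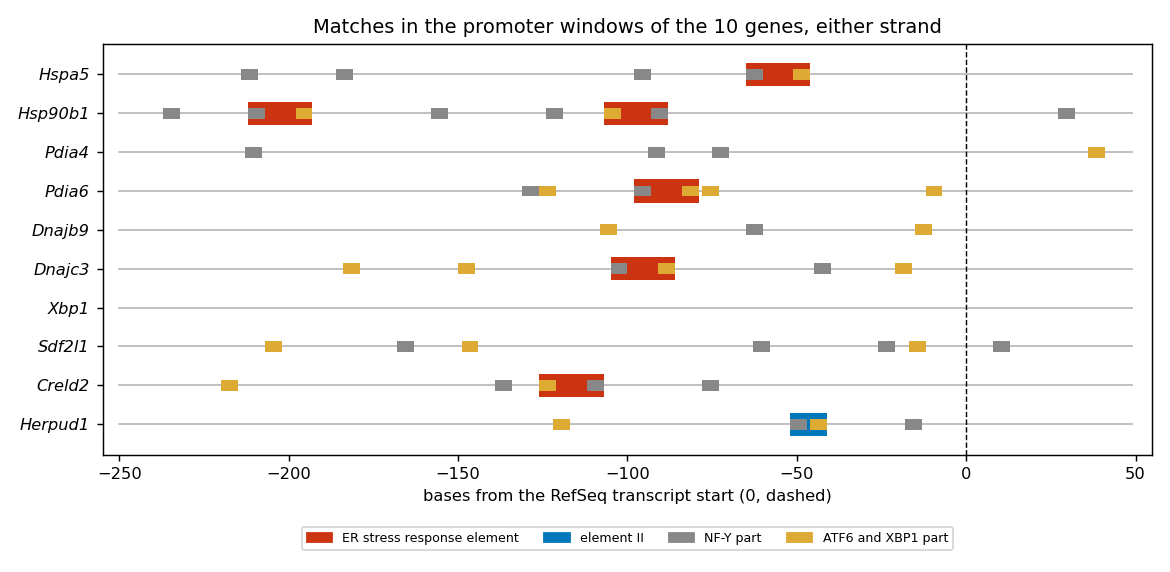
Positions of matches in the promoter windows of the 10 genes, with bases from the RefSeq transcript start on the horizontal axis and 1 line per gene. Red blocks are the ER stress response element (5 genes, with 2 blocks in Hsp90b1), the blue block is element II (Herpud1), and the small grey and yellow blocks are the NF-Y part and the ATF6 and XBP1 part, on either strand.

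Per kilobase of transcript, the scale on which genes can be compared, Hsp90b1 stood highest with a mean level of 7686 normalised reads per kb over the 12 libraries, and Hspa5 followed with 6386. Pdia6 (4456 per kb) came next, then Xbp1 (2931), Herpud1 (2818), Pdia4 (2418), Sdf2l1 (1610), Creld2 (1506), Dnajc3 (953) and Dnajb9 (443). Several neighbours in this order did not separate: Xbp1 was above Herpud1 in 5 of 12 libraries, Herpud1 above Pdia4 in 7, Sdf2l1 above Creld2 in 9 and Creld2 above Dnajc3 in 7. Hsp90b1 was above Hspa5 in 11 of 12, and Dnajc3 was above Dnajb9 in 12 of 12. Together the 10 genes took between 0.195% (PH80_HC replicate 3) and 0.568% (PH80_G+H replicate 2) of all normalised reads of a library.

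The larger resection was compared with the smaller (PH80 against PH70) to ask how gene expression differs when more liver is removed. Herpud1 fell, and the other 9 genes did not pass the test. The log2 differences of Hsp90b1, the isomerases and the cochaperones lay between -0.20 and 0.04, and that of Xbp1 was -0.02. Hspa5 (0.38), Sdf2l1 (0.55) and Creld2 (1.08) had higher means in PH80, with libraries that overlapped PH70. Limma called 1 of the 10 members, against 3.82% of all 12570 genes tested (2.73% called lower). The median log2 difference of the members was -0.01, against 0.01 for all genes.

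Herpud1, whose product helps bring misfolded proteins to the degradation complex in the ER membrane, had 7108, 8628 and 5131 normalised reads in PH70 replicates 1 to 3. In PH80 it had 3377, 2811 and 3064. In PH80_HC the values were 4853, 5604 and 6511, and in PH80_G+H they were 7029, 5114 and 6785. Every PH80 library was thus below every library of the other groups, while the PH70, PH80_HC and PH80_G+H libraries overlapped. From PH70 (6956 ± 1753) to PH80 (3084 ± 283) Herpud1 was 2.21-fold lower, a log2 difference of -1.14 (SE 0.22, 95% interval -1.62 to -0.67, limma adjusted p 0.0142). Non-overlap in the lower direction was seen in 14.2% of all genes tested. The call rested on single libraries: the adjusted p was 0.0519 without PH70 replicate 1, 0.0894 without PH70 replicate 2 and 0.0586 without PH80 replicate 2, with log2 differences of -1.11, -0.97 and -1.08. edgeR (adjusted p 0.0192) and DESeq2 (3.09e-05) on recovered reads called it as well.

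Hspa5, the main Hsp70 chaperone of the ER and the partner that holds the sensors inactive, had 17052, 23674 and 15500 normalised reads in PH70. It had 22240, 17112 and 36607 in PH80. The ranges overlapped, and 1 library, PH80 replicate 3, was well above the rest of both groups. The log2 difference was 0.38 (95% interval -0.36 to 1.13, adjusted p 0.542).

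Hsp90b1, the ER member of the Hsp90 family, had 15748, 28275 and 21119 normalised reads in PH70 and 20211, 17419 and 26599 in PH80. Its log2 difference was -0.002 (95% interval -0.72 to 0.71), so differences inside that interval cannot be told from none with these libraries. The isomerases, which form and rearrange disulfide bonds, gave log2 differences of -0.20 (Pdia4, interval -0.91 to 0.52) and 0.04 (Pdia6, -0.61 to 0.69). The cochaperones that deliver clients to Hspa5 gave -0.19 (Dnajb9, -0.96 to 0.58) and -0.02 (Dnajc3, -0.53 to 0.48). All 4 had overlapping groups.

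Creld2, an ER protein with disulfide isomerase features, had 1103, 1439 and 952 normalised reads in PH70 and 3045, 1166 and 4040 in PH80. Replicates 1 and 3 of PH80 were above all of PH70, and replicate 2 lay within it. On the log2 scale of the fit Creld2 was 2.12-fold higher in PH80, a log2 difference of 1.08 (SE 0.43, adjusted p 0.170 by limma and 0.116 by edgeR). DESeq2 on recovered reads did call it (log2 difference 1.24, adjusted p 0.0371). With the length and GC trend removed, the log2 difference was 0.87 (limma adjusted p 0.241). Without the library of each group with the steepest length trend, an alternative chosen after seeing the data, it was 0.78 (adjusted p 0.474). Sdf2l1, a partner of ER J-domain proteins, had 1341, 1786 and 1008 in PH70 and 2055, 1163 and 3190 in PH80, again with replicate 2 of PH80 within the PH70 range. Its log2 difference was 0.55 (95% interval -0.24 to 1.35, adjusted p 0.401).

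Xbp1 had 6399, 6493 and 5548 normalised reads in PH70, 4831, 6784 and 6814 in PH80, 8161, 5309 and 5461 in PH80_HC, and 6290, 6679 and 6115 in PH80_G+H. Its log2 differences in the 6 comparisons between groups lay between -0.04 and 0.07, and each 95% interval stayed within -0.50 and 0.52. Xbp1 had the narrowest spread within groups of the 10 genes, with a log2 SD of 0.24 against a median of 0.32 over all genes tested. These gene-level values count spliced and unspliced Xbp1 mRNA together, so IRE1 activity cannot be read from them.

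**Figure D2:**
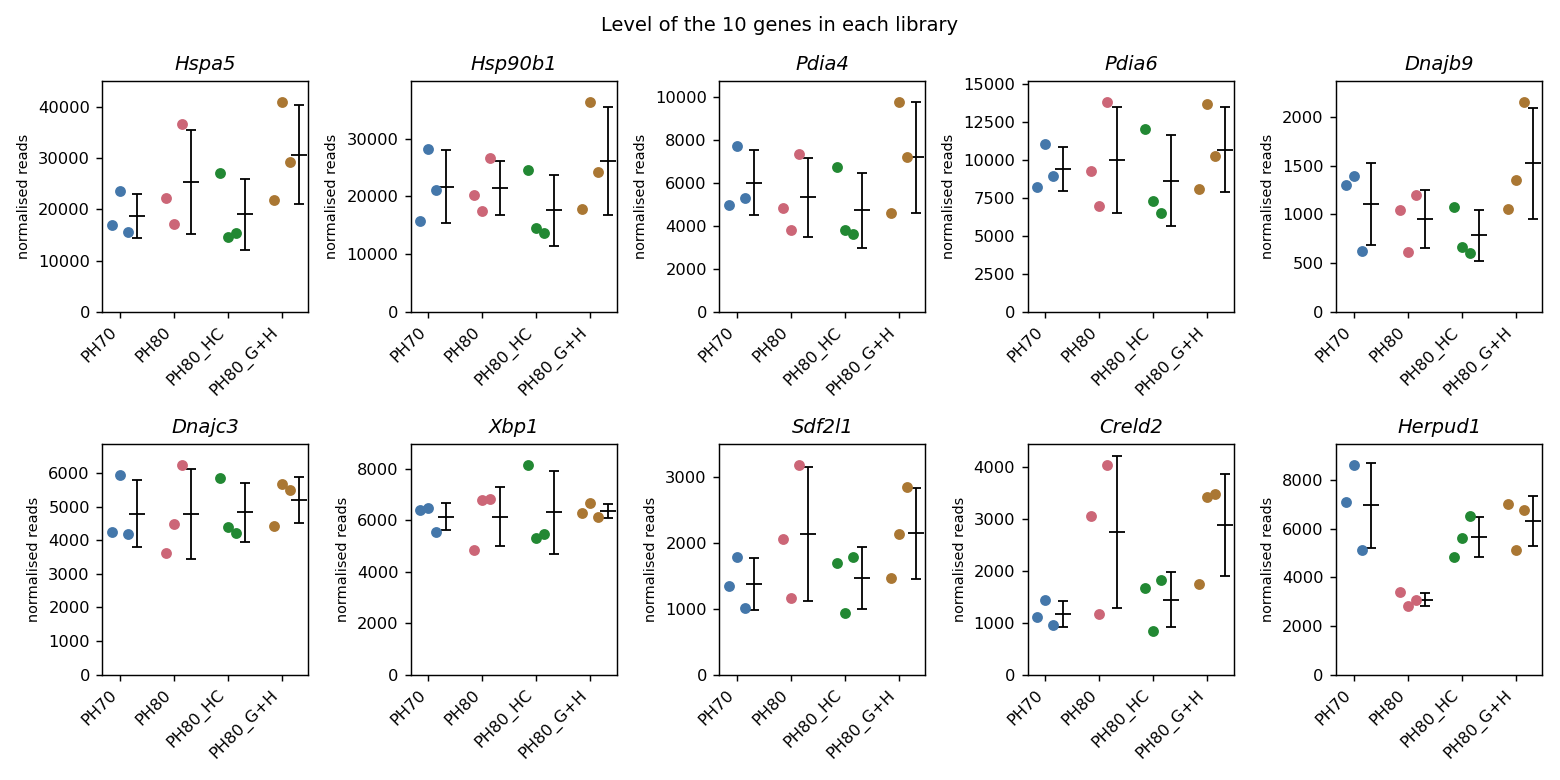
Normalised reads of each gene in each library (points, replicates 1 to 3 from left to right) with the mean and SD of 3 libraries (black), by group. Axes start at 0 and differ between panels. Herpud1 in PH80 lies at 2811 to 3377, under every other library, while the points of the other 9 genes overlap between PH70 and PH80.

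The PH80_HC arm was compared with PH80 at the same extent of resection, and shares the PH80 libraries with the comparison above. Limma called 0 of the 10 members (unadjusted p under 0.05 for 1; edgeR 0; DESeq2 1, Herpud1), against 0.891% of all genes tested. Herpud1 had a mean of 5656 ± 830 in PH80_HC against 3084 ± 283 in PH80. The groups did not overlap, as was the case in the higher direction for 8.26% of all genes tested. The log2 difference was 0.87 (95% interval 0.39 to 1.34, limma adjusted p 0.0896, DESeq2 0.00683). It was called after removal of the length and GC trend (0.045), and with every library scaled to the same total it was 0.54 (0.186), since that scaling shifts every gene by -0.33 in this comparison and by 0.12 in PH80 against PH70.

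Of the 8 chaperone, isomerase, cochaperone and lumen genes, 7 had a lower mean in PH80_HC than in PH80. These genes varied together between libraries, as described below, so such counts are not made of independent observations. Hspa5 had 27042, 14634 and 15408 normalised reads in PH80_HC, so replicate 1 was high and the others were below all of PH80, and its log2 difference was -0.40 (95% interval -1.15 to 0.35). Creld2 (1659, 836 and 1823) gave -0.83 (-1.75 to 0.08, adjusted p 0.404) and Sdf2l1 (1701, 933 and 1784) gave -0.48 (-1.27 to 0.32). For Hsp90b1, Pdia4, Pdia6 and Dnajb9 the log2 differences lay between -0.31 and -0.18, and Dnajc3 was at 0.04. The median over the 10 was -0.24, against 0.01 for all genes.

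The PH80_G+H arm, also compared with PH80, had a higher mean than PH80 for 10 of 10 genes, with a median log2 difference of 0.21 against 0.00 for all genes. Most of the 10 varied together between libraries, so this count too is not made of independent observations. Limma called 0 of the 10 (unadjusted p under 0.05 for 1; edgeR 0; DESeq2 1, Herpud1), against 0.119% of all genes tested. Herpud1 had a mean of 6309 ± 1043 and was 2.03-fold above PH80, a log2 difference of 1.02 (SE 0.22, limma adjusted p 0.121, DESeq2 0.00169). The groups did not overlap, as in the higher direction for 8.82% of all genes tested, and removal of the length and GC trend gave an adjusted p of 0.0371. Relative to PH70, Herpud1 was at -0.12 in PH80_G+H (interval -0.60 to 0.35) and at -0.28 in PH80_HC (-0.75 to 0.20). All of these comparisons share libraries with PH80 against PH70 and are not independent of it.

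Hspa5 in PH80_G+H had 21794, 40979 and 29357 normalised reads. Replicate 2 was the highest of the 12 libraries, and replicate 1 was close to PH80 replicate 1. The log2 difference from PH80 was 0.30 (95% interval -0.45 to 1.05). Dnajb9, which binds unfolded clients and also IRE1, had 1058, 1357 and 2152 in this arm against 1042, 618 and 1194 in PH80, a log2 difference of 0.67 (-0.10 to 1.44, adjusted p 0.543). The other members, Herpud1 aside, lay between 0.07 and 0.42.

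**Figure D3:**
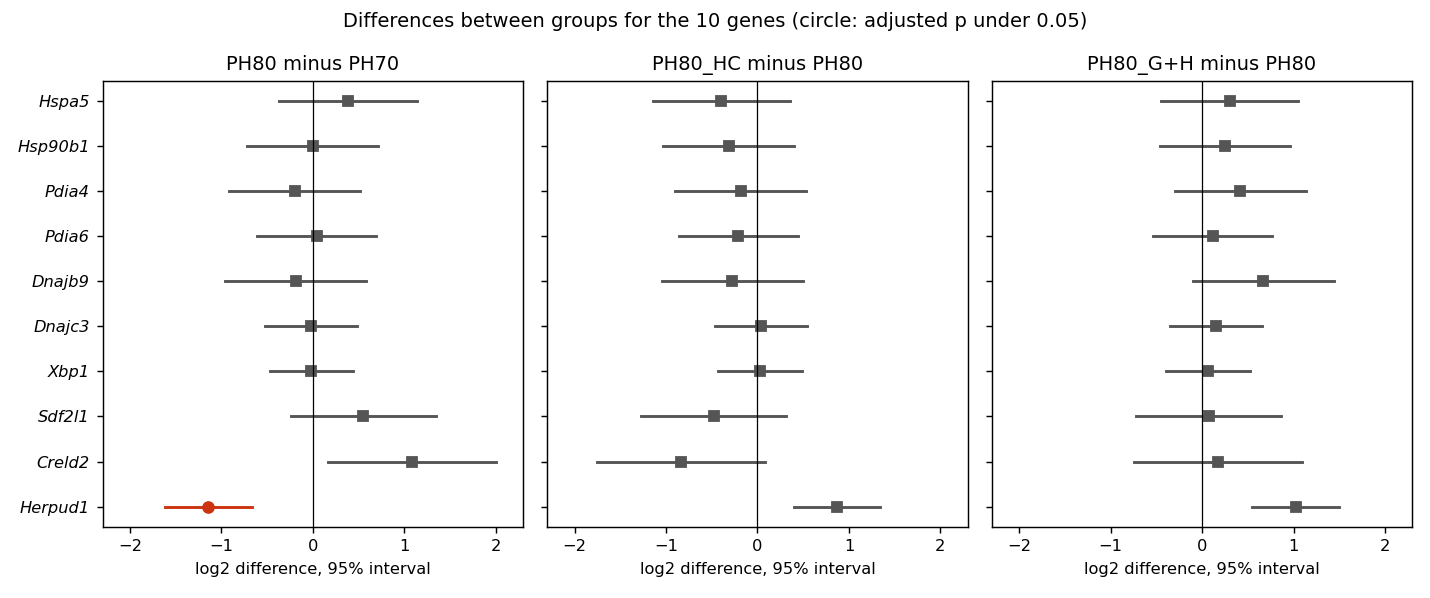
Log2 differences of the 10 genes in the 3 main comparisons, with 95% intervals from limma (lines) and values of 0 at the vertical line. The red circle marks Herpud1 in PH80 against PH70 (-1.14), the 1 call among the 30 differences, and squares mark differences that did not pass the test. Herpud1 sits at 0.87 and 1.02 in the other panels.

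Against PH70, limma called 0 of the 10 members in PH80_HC (unadjusted p under 0.05 for 0; edgeR 0; DESeq2 0) with a background of 0.231%, and 0 in PH80_G+H (1, 0 and 0 by the same measures) with a background of 0.00796%. Over all genes tested, 15.8% and 5.97% had an unadjusted p under 0.05 in these 2 comparisons, and DESeq2 called 253 and 66. The member with an unadjusted p under 0.05 in PH80_G+H was Creld2, with 1744, 3417 and 3470 normalised reads, all above PH70. Its log2 difference was 1.26 (95% interval 0.34 to 2.17, adjusted p 0.589), and non-overlap in the higher direction was seen for 5.95% of all genes tested. Between the treated arms, 10 of 10 genes, again not independent of each other, had a lower mean in PH80_HC than in PH80_G+H. The median log2 difference was -0.56 against 0.02 for all genes. Limma called 0 of them (unadjusted p under 0.05 for 2; edgeR 0; DESeq2 0), against 0.255%. The 2 were Creld2 (-1.01, interval -1.93 to -0.09) and Dnajb9 (-0.94, -1.71 to -0.17). The F test over the 4 groups called Herpud1 (adjusted p 0.0415, with 1.85% of all genes called), and this call was lost under edgeR, without the intensity trend, with the same total in every library, with the replicate block, and without PH70 replicate 1 or 2, any PH80 library, PH80_HC replicate 2, or PH80_G+H replicate 1 or 3.

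The spread within groups was shared by the genes. PH80_G+H replicates 2 and 3, PH80 replicate 3 and PH70 replicate 2 were above the gene's own mean over the libraries for 9 of 10 members, and PH80_HC replicate 1 for 8 of 10. PH70 replicate 3, PH80 replicate 2 and PH80_HC replicate 2 were above it for 1 of 10. Averaged over the 8 folding genes (the members other than Herpud1 and Xbp1), the log2 deviation ranged from -0.59 in PH80_HC replicate 2 to 0.62 in PH80_G+H replicate 2. Within PH80 it went from -0.45 (replicate 2) to 0.59 (replicate 3), a wider gap than that between any group means (-0.26 in PH80_HC to 0.34 in PH80_G+H).

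Over the 12 libraries, the 28 pairs among these 8 genes had a median Pearson r of 0.73 (0.41 to 0.96) on log2 values, and of 0.73 on deviations from the group means. Hsp90b1 followed Pdia4 (0.96), and Creld2 followed Sdf2l1 (0.95). Herpud1 had a median r of -0.08 with the other 9 (-0.25 to 0.32), and Xbp1 one of 0.46 (-0.04 to 0.74). These are descriptions over 12 points that share libraries, group structure and the same scaling. The folding genes were also among the more variable in the table: the log2 SD within groups of Creld2 (0.65), Sdf2l1 (0.55) and Dnajb9 (0.53) stood at percentiles 90.5, 84.7 and 83.3 of all genes tested, whereas Herpud1 (0.26) stood at 34.4.

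**Figure D4:**
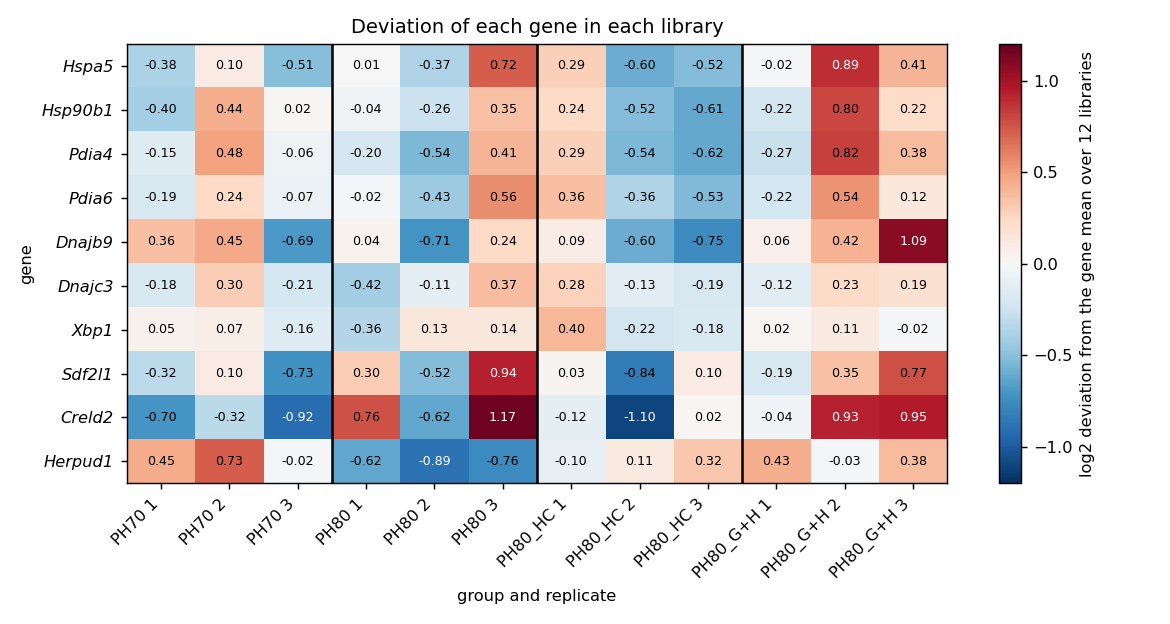
Log2 deviation of each gene (lines) in each library (columns, ordered by group and replicate) from the gene's mean over 12 libraries, red above and blue below. Folding genes are high together in PH80 replicate 3 and PH80_G+H replicates 2 and 3, and low together in PH80_HC replicate 2. Herpud1 is at -0.62, -0.89 and -0.76 in the PH80 libraries.

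Herpud1 and Hspa5 are both textbook targets of the response, and their ratio shows how far they parted. Per 100 normalised reads of Hspa5 (not scaled for length) there were 33.1 to 41.7 of Herpud1 in PH70 and 8.37 to 16.4 in PH80. The range was 17.9 to 42.3 in PH80_HC and 12.5 to 32.3 in PH80_G+H. Every PH80 library was below every library of PH70 and PH80_HC, and PH80 overlapped PH80_G+H through replicate 2 of that arm (12.5), the library with the highest Hspa5.

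**Figure D5:**
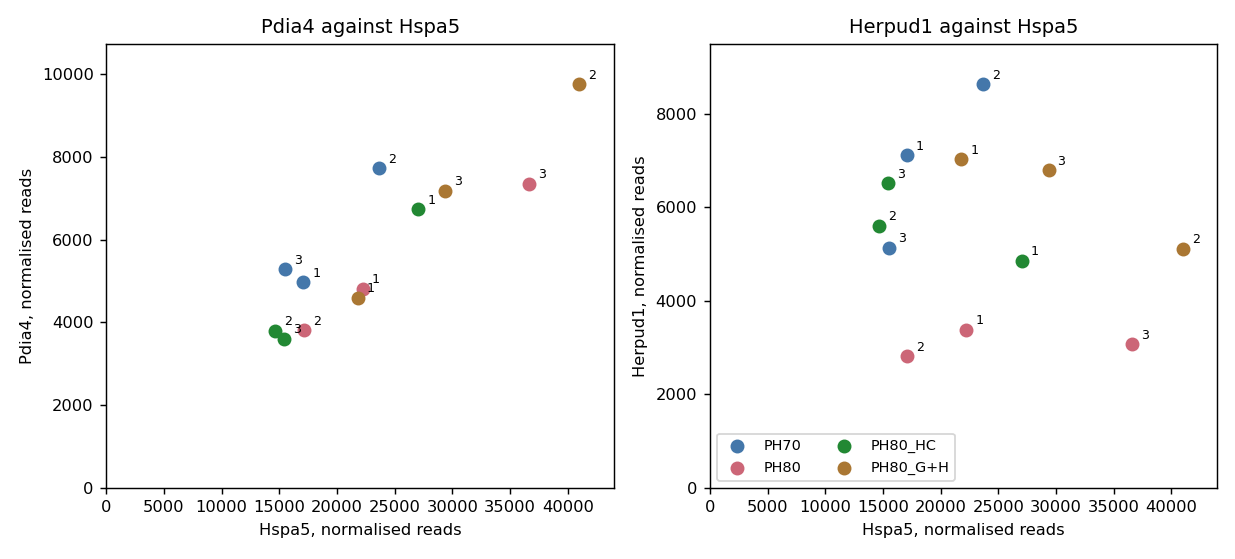
Pdia4 (left) and Herpud1 (right) against Hspa5, all in normalised reads, with 1 point per library coloured by group and numbered by replicate. Pdia4 goes up with Hspa5 across groups, from 3600 to 9750 normalised reads, and Herpud1 does not, the PH80 points lying at 2811 to 3377 while Hspa5 runs from 17112 to 36607.

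The technical and cellular measures of the libraries were set beside this shared variation. The libraries with high folding genes had length slopes of 0.24 (PH80_G+H replicate 2), 0.01 (PH80_G+H replicate 3), 0.11 (PH70 replicate 2) and -0.00 (PH80 replicate 3), and those with low ones had 0.23 (PH70 replicate 3), -0.01 (PH80 replicate 2), 0.04 (PH80_HC replicate 2) and -0.28 (PH80_HC replicate 3). The last of these had a mean deviation of -0.39 in the 8 genes and the steepest negative slope of the 12 libraries, while PH70 replicate 3, with a mean deviation of -0.40, had a slope near the steepest positive. The deepest library (PH80_G+H replicate 2, 44.5 M reads) was the highest in the 8 genes, and the next deepest (PH80_HC replicate 2, 40.7 M) was the lowest. Plasma cells have very high levels of these chaperones. Their markers and those of B cells (6 of 13 in the table; the immunoglobulin constant region genes were not analysed here) summed to 95.9 to 161 normalised reads in PH70, 108 to 204 in PH80, 235 to 475 in PH80_HC and 131 to 349 in PH80_G+H. These sums include Derl3, which is also counted among the degradation genes below. It made 192 of the 349 in PH80_G+H replicate 3 and 131 of the 475 in PH80_HC replicate 3. Jchain, which joins antibody units, rose from PH80 to PH80_HC (36.0 ± 23.1 to 192 ± 47.6, limma adjusted p 0.0344). That call changed in 10 of 21 alternatives. The mean deviation of the 8 folding genes was lowest in PH80_HC (-0.26).

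Pancreatic acinar cells are another rich source of ER chaperones, and 2 of 10 of their markers were in the table, with sums of 335 to 963 normalised reads in all groups. Of these, Cela2a fell from 56.6 ± 2.36 in PH70 to 15.1 ± 10.3 in PH80 (limma adjusted p 0.0388, a call that changed in 9 of 21 alternatives). Cela1, which made most of the sums, had 904, 492 and 377 in PH70 and 797, 376 and 549 in PH80. Its log2 difference was -0.01 (adjusted p 0.994 by limma without the intensity trend). Neutrophil markers (10 of 10 in the table) summed to 146 to 484 in PH70, 309 to 5919 in PH80, 623 to 2358 in PH80_HC and 368 to 2367 in PH80_G+H, and macrophage markers (9 of 9) to 9727 to 14171, 11244 to 27173, 18800 to 32816 and 10840 to 15065. Hepatocyte marker sums were lower in PH80 (1.98 to 2.50 M) than in PH70 (3.02 to 3.28 M), without overlap. Alb alone made 1.48 to 1.86 M of the PH80 sums. Of the 8 markers, 6 had lower means in PH80 and 2 higher, and limma called 0 (edgeR 0, DESeq2 1, Alb). Non-overlap was seen for 2 in the lower direction and 1 in the higher, against 14.2% and 12.8% of all genes tested. Their median log2 difference was -0.25, beside -1.14 for Herpud1. Markers of stellate cells and fibroblasts (7 of 7) summed to 4825 to 14066 in PH70, 6812 to 22210 in PH80, 3549 to 5720 in PH80_HC and 5596 to 10213 in PH80_G+H. In PH80_HC against PH80, where 7 of the 8 folding genes had lower means, all 7 of these markers did too (median log2 difference -1.69). Limma, edgeR and DESeq2 called 0 of these markers. An unadjusted limma p under 0.05 was seen for 5 of them, against 14.3% of all genes tested. In PH80_G+H against PH80, where 10 of 10 members had higher means, 4 of the 7 stellate and fibroblast markers had lower means and 3 higher (median log2 difference -0.72). PH80 replicate 2 had the highest sum of these markers among the 12 libraries (22210), with a mean deviation of -0.45 in the 8 folding genes. The part of these cell types, of depth and of the length trend in the members' values was not tested.

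The genes outside the 10 whose levels followed Hspa5 most closely over the 12 libraries, out of 10563 compared, were Dnajb11 (r 0.97), Hyou1 (0.94), Ubfd1 (0.94), Hspa13 (0.94) and Sec23b (0.90). Dnajb11 is an ER J-domain cochaperone, Hyou1 an ER chaperone of the Hsp110 family that exchanges nucleotide on Hspa5, Hspa13 a microsomal Hsp70 relative and Sec23b a coat subunit of vesicles that leave the ER. Those closest to Xbp1 were P4hb (0.92), a protein disulfide isomerase gene, Adsl (0.91), Gps1 (0.90), Ahsg (0.89) and Tmed10 (0.88). For Herpud1, added after its values were seen, the closest were Zcchc24 (0.93), Mcm10 (0.92), Upp2 (0.92), Scnn1a (0.91) and Dbp (0.91). Dbp, a transcription factor of the circadian output whose mRNA cycles with time of day in liver, had means of 1375 in PH70, 92.1 in PH80, 676 in PH80_HC and 541 in PH80_G+H, and it fell from PH70 to PH80 (log2 difference -3.84, limma adjusted p 0.000695). The time of day at sampling was not given in the sources used here, and its part in Herpud1 was not tested.

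Median r with Hspa5 was 0.61 over 22 other ER folding enzymes and chaperones, 15 of which were over 0.5, and 0.54 over 32 genes of translocation and ER to Golgi traffic, with 20 over 0.5. Over all genes tested it was 0.00, with 8.19% over 0.5. It was 0.36 for 17 degradation genes, 0.34 for 10 sensors and regulators, 0.46 for 14 cytosolic chaperones and 0.18 for 10 mitochondrial chaperones and proteases. The PERK and ATF4 arm (-0.17 over 19 genes) and the secreted client proteins (-0.12 over 22) had 0 genes over 0.5. On deviations from the group means the medians were 0.65 for the other folding genes, 0.57 for translocation and traffic, 0.43 for degradation, 0.48 for the sensors, 0.36 for cytosolic and 0.50 for mitochondrial chaperones, -0.12 for the PERK and ATF4 arm and 0.31 for the client proteins, whose sign thus differs between the 2 measures, against 0.03 for all genes. The 4 members with the ER stress response element other than Hspa5 had a median r of 0.86. The members with neither element were at 0.88 (Pdia4), 0.81 (Sdf2l1), 0.72 (Dnajb9) and 0.49 (Xbp1). The 13 tested genes outside the members with the ER stress response element had a median r of 0.36. Among these 13 were Calr (0.74), Canx (0.58), Syvn1 (0.74) and Alg12 (0.76), which act in the ER, as does Derl3 (0.36). The other 8 ran from -0.17 (Hnrnpa3) to 0.52 (Spats2l), with Acnat2 at 0.48. Dnajb11, the gene closest to Hspa5, holds element II as Herpud1 does, so the same letters were found beside 2 different patterns.

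The 3 sensors themselves had lower means after the larger resection. Ern1, which encodes IRE1, had 235 ± 117 normalised reads in PH80 against 427 ± 75.1 in PH70 (log2 difference -0.97, 95% interval -1.70 to -0.23, adjusted p 0.131). Atf6 had 880 ± 109 against 1323 ± 76.9 (-0.59, -1.03 to -0.15, adjusted p 0.126), and Eif2ak3, which encodes PERK, had a mean of 409 against 560 (-0.45, -1.03 to 0.13, adjusted p 0.356). None of the 3 passed the test, although their groups did not overlap, and 5 of the 10 sensors and regulators did not overlap in the lower direction, against 14.2% of all genes. Another 2 of the 10, Atf6b (log2 difference 0.41, adjusted p 0.266) and Wfs1 (0.44, 0.367), named after their values were seen, did not overlap in the higher direction, against 12.8%. Ern1 and Atf6 have long transcripts (6946 and 7246 bases), and after removal of the length and GC trend their log2 differences were -0.81 (adjusted p 0.117) and -0.44 (0.11). Without PH80 replicate 3 Ern1 was called (-1.34, adjusted p 0.039), and without PH80 replicate 1 it was at -0.59 (0.404). Atf6 was called without PH80_HC replicate 3 (-0.59, 0.0449), which enters only the shared estimate of spread. In PH80_G+H against PH80, Ern1 was at 1.01 (0.27 to 1.74, adjusted p 0.295), Atf6 at 0.42 (0.499) and Eif2ak3 at 0.40 (0.632). In PH80_HC against PH80 they were at 0.04, 0.20 and -0.33.

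Limma called 0 of the 10 sensors in PH80 against PH70 (unadjusted p under 0.05 for 2; edgeR 0; DESeq2 0), a comparison in which 21.4% of all genes had an unadjusted p under 0.05. It also called 0 of 22 other ER folding genes (4 unadjusted, 0 by edgeR, 1 by DESeq2), 0 of 17 degradation genes (2, 0 and 2) and 0 of 32 translocation and traffic genes (9, 0 and 3). For 14 cytosolic chaperones (1, 0 and 0), 10 mitochondrial chaperones and proteases (2, 0 and 1) and 22 secreted client proteins (5, 0 and 5) the limma count was 0 too. In the 5 other comparisons limma again called 0 genes of these 7 lists, as did edgeR, and DESeq2 called 9 in 635 tests. The unadjusted p was under 0.05 in 64 of the 635 limma tests, or 10.1%, against 12.02% of all genes. Over all genes tested, DESeq2 called between 66 and 508 in these comparisons. Median log2 differences in PH80 against PH70 were -0.33 for the sensors, 0.22 for the other folding genes, 0.07 for degradation, 0.16 for translocation and traffic, 0.25 for cytosolic and -0.25 for mitochondrial chaperones, and -0.22 for client proteins. There, 10 of 32 translocation and traffic genes did not overlap in the higher direction (12.8% of all genes). In the lower direction it was 2 (14.2%). For the 22 client proteins these counts were 0 and 8. In PH80_HC against PH80, 22 of 22 client proteins had higher means, with a median log2 difference of 0.59 against 0.01 for all genes. Of them, 9 did not overlap in the higher direction (8.26% of all genes). Scaling to the same total shifts that comparison by -0.33.

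Manf, a secreted ER protein that responds to unfolded proteins, was just short of the threshold. It had 4204, 4086 and 2087 normalised reads in PH70 and 8850, 5273 and 9205 in PH80, with no overlap (12.8% of all genes in that direction). The log2 difference was 1.19 (95% interval 0.52 to 1.87, limma adjusted p 0.0504), it was called in 7 of 21 alternatives, among them DESeq2 (0.006), and it was 0.75 without the libraries with the steepest length trend (adjusted p 0.237). In PH80_HC and PH80_G+H against PH80 it was at -0.69 (adjusted p 0.340) and -0.11 (0.925).

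Hyou1 was at 0.34 on the log2 scale in PH80 against PH70 (adjusted p 0.555), at -0.63 in PH80_HC against PH80 (0.400) and at 0.59 in PH80_G+H against PH80 (0.543). Calr, the lectin chaperone calreticulin, was at -0.18 (0.770), -0.01 and 0.16 in the same comparisons. Albumin, the main client of the hepatocyte ER, was at 1.48, 1.55 and 1.86 M normalised reads in PH80 and at 2.32 to 2.58 M in PH70. The groups did not overlap, as in the lower direction for 14.2% of all genes tested. The log2 difference of Alb was -0.61, with a 95% interval of -2.31 to 1.09 (adjusted p 0.688 by limma, 0.0481 by DESeq2). Limma without the intensity trend gave the same difference with an adjusted p of 0.130, so the width of the interval depends on that trend. In PH80_HC and PH80_G+H against PH80, Alb was at 0.57 (0.819, or 0.232 without the trend) and 0.48 (0.860, or 0.435).

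The PERK and ATF4 arm had calls in both directions. Of its 19 tested genes, 1 rose and 2 fell from PH70 to PH80, where 3.82% of all genes were called (2.73% in the lower direction). Trib3, a pseudokinase induced by ATF4 and CHOP, had 461, 280 and 384 normalised reads in PH70 and 73.1, 144 and 86.5 in PH80, a 3.75-fold fall (log2 difference -1.91, SE 0.30, limma adjusted p 0.00648). Gdf15, a stress hormone that is a target of ATF4 and CHOP, had 1789, 1426 and 2272 against 647, 434 and 454, a 3.56-fold fall (-1.83, SE 0.25, adjusted p 0.00317). Both were called in all 21 alternatives. Psat1, an enzyme of serine synthesis that ATF4 raises, went the other way, from 59.3, 53.0 and 31.2 to 104, 340 and 198 (log2 difference 2.03, SE 0.40, adjusted p 0.0158). Its call was lost without PH70 replicate 2 (adjusted p 0.0649), PH70 replicate 3 (0.0538) or PH80 replicate 2 (0.064).

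Atf4 itself was at a log2 difference of 0.39 (adjusted p 0.382) and Ddit3, which encodes CHOP, at 1.25 (0.16 to 2.34, adjusted p 0.180). Neither passed the test, and the groups overlapped for both. Their means were higher in PH80, as was that of the target Psat1, while the targets Trib3 and Gdf15 fell. In PH80_HC against PH80 limma called 0 of the 19 (unadjusted p under 0.05 for 4; edgeR 0; DESeq2 2), with Trib3 at 0.95 (adjusted p 0.168), Gdf15 at 0.04, Atf4 at -0.04 and Ddit3 at -0.16. In PH80_G+H against PH80 it also called 0 (5, 0 and 2), with Gdf15 at 1.33 (adjusted p 0.0624, called in 5 of 21 alternatives), Trib3 at 0.64 (0.485), Atf4 at -0.26 and Ddit3 at -0.62. Over all genes tested, 14.3% and 10.5% had an unadjusted p under 0.05 in these 2 comparisons, and DESeq2 called 508 and 203. Gdf15 stayed low in PH80_HC (533 ± 159) and was lower there than in PH70 (log2 difference -1.80, adjusted p 0.0184), a call lost without PH70 replicate 3 (0.0682).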

How the data were processed

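The deposited table holds 1 normalised signal per gene and library. Per the submitters' processing notes, GRCm38 (mm10) was the build and DESeq2 a tool used; aligner, counter and annotation are not stated there. Whole reads were recovered: 100% of values were whole multiples of 1 read within 0.01, with 1 size factor per library. Per the labels, libraries were made with the TruSeq Stranded mRNA kit from 100 ng of RNA; whether counting used strand is unknown, and exons of Hsp90b1 overlap an antisense gene (1810014B01Rik, 415 bases).

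Limma (3.58.1, R 4.3.3) was fitted to log2(value + 1) over the 12 libraries, with group as the only factor and an intensity trend. Tests were two-sided, adjusted over 12570 genes by Benjamini-Hochberg, with a threshold of 0.05. Fold changes are on this scale. edgeR (4.0.16) and DESeq2 (1.42.0) on recovered reads were alternatives, and called 368 and 952 genes in PH80 against PH70, where limma called 480. In all, 21 alternatives were run per comparison, 1 of them added after seeing the data. The code was tested on simulated data.

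The members and lists were chosen with earlier results of these data known. By rule, the text names all members, up to 4 called genes of each list with the smallest adjusted p, the fixed genes Atf4, Ddit3, Trib3, Atf6, Ern1, Eif2ak3, Hyou1, Calr, Manf and Alb, and the 5 genes closest to Hspa5 and to Xbp1 (mean of at least 50). Lengths and positions are from GENCODE M21, which matched 13513 of 13554 symbols. Promoter sequences are RefSeq's. Protein sequence features were not analysed here.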

Additional observations from a re-analysis of the deposited data

How the results depend on the processing

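Each of the 60 member differences (10 genes, 6 comparisons) was recomputed under 21 alternatives. Of the 1260 values, 1252 stayed on the same side of the threshold, 3 lost a call (Herpud1 in PH80 against PH70, given above) and 5 gained 1. Differences that were not called changed sign in 90 values over 31 results, the largest of which was 0.33 in the reported fit. The number of members called was 2 with DESeq2 in PH80 against PH70, 1 with DESeq2 and 1 with the length and GC trend removed in PH80_HC and in PH80_G+H against PH80, and in the F test 0 without the intensity trend, 0 with edgeR, 2 with DESeq2, 0 with the same total in every library and 0 with the replicate block. Leaving out 1 library gave 0 to 1 members in PH80 against PH70 and in the F test, and 0 to 0 in the other comparisons.

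Counts over all genes moved more. In PH80 against PH70 (480 genes) DESeq2 gave 952, the same total 237, the replicate block 293, the libraries without the steepest length trends 303, and leaving out 1 library 61 to 725. In PH80_HC against PH80 (112) the values were 508, 72, 65, 64 and 28 to 125, and 269 with the length and GC trend removed. In PH80_G+H against PH80 (15) they were 203, 0, 9, 24 and 0 to 26, with 40 after removal of the trend and 0 without the intensity trend. PH80_HC against PH70 (29) gave 253 with DESeq2, 15 with edgeR, 8 without the intensity trend, 10 with the block and 1 to 55. PH80_G+H against PH70 (1) gave 66 with DESeq2, 3 with a pseudocount of 10, 5 with the trend removed, 9 without the steepest libraries and 0 to 6. PH80_HC against PH80_G+H (32) gave 303 with DESeq2, 8 with the block, 16 without the steepest libraries and 2 to 59. The F test (232) gave 1226 with DESeq2, 106 without the intensity trend, 139 with the same total, 392 with the trend removed, 107 with the block, 141 without the steepest libraries and 27 to 279. The cause of these shifts was not tested.

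By the replicate numbers of the sample titles, 6 of 18 same-numbered pairs had a correlation of deviations over 0.1, against 14 of 36 others. The deposited column names number the libraries differently. In them PH80_HC replicate 1 shares its number with PH80_G+H replicate 2 (correlation 0.42, counted above among the others). PH80_HC replicate 3 shares its number with PH80_G+H replicate 3 (0.18). Pairing by the column names was not tested. With 3 libraries a group, 95% intervals of the folding genes span between 0.51 (Dnajc3) and 0.92 (Creld2) log2 units to each side, and adjustment over all genes asks for more: Creld2 at 1.26 in PH80_G+H against PH70 was not called. Groups of 3 are too small for a test of outlying libraries.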
